A study of Bos taurus with 26 samples.

Results

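The luteal-enriched gene IDs are a set of 76 of the 24616 IDs in the count tables (0.309%). They were chosen from these counts by tissue. Each averaged at least 30 CPM (a count divided by the total of its library, times 1000000) over the 12 corpus luteum libraries. Each also averaged at least 20 times its mean over the 14 endometrium libraries. Ratios of the tissue means are given with 0.01 CPM added to both means. They made up 1.52% of the 5007 IDs that reached 30 CPM in corpus luteum, and the upper limit of 300 members was not reached. Because the tissue contrast chose the members, every value of that contrast below is a description without a test.

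Holstein cows selected for high fertility (Fert+) or low fertility (Fert-) were sampled, all on day 13 of the oestrous cycle. Polyadenylated RNA was sequenced from endometrium (8 Fert+ and 6 Fert-) and from corpus luteum biopsies (7 Fert+ and 5 Fert-), cleared of connective tissue. Each corpus luteum library is called here by its label, in which CL is the tissue, H or L is the line (Fert+ or Fert-) and the number is the replicate. Batches 1 to 4 and parities 2 to 4 are given in the labels. In corpus luteum, batch 1 held 2 Fert+ libraries of parity 2 and 2 Fert- libraries of parity 4. Batch 2 held 1 library of each line, both of parity 4, and batch 3 held 2 of each line, of parity 3 except for the Fert+ library CL_H_23 of parity 4. Batch 4 held 2 Fert+ libraries of parity 3 and no Fert- library, so it gave no value within the batch. In endometrium each of the 4 batches held both lines. Separate cows are not stated for the libraries, and p-values therefore measure only the spread between these samples, which may be technical.

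The corpus luteum is the gland that forms from the ovulated follicle and secretes progesterone, the hormone that prepares the endometrium for an embryo. Its steroid-producing luteal cells take up cholesterol, carry it into mitochondria and convert it to progesterone, and they lie among endothelial cells, pericytes, fibroblasts and immune cells. In a cycle without pregnancy the gland regresses when prostaglandin from the uterus reaches it. None of the 24616 IDs could be matched to a gene symbol (0 matches), so the luteal identity of the tissue was not checked against known markers and the members are given by ID, without a function or a sequence. In bulk tissue, fewer cells of a type and less RNA per cell cannot be told apart.

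Corpus luteum libraries held 11924906 to 18008417 counts and endometrium libraries 9627378 to 16580572. The lowest total in corpus luteum was that of CL_L_28. Libraries CL_L_17 and CL_L_28 stood apart for the members, and results that rest on them are given with and without them. CL_H_15, CL_H_16, CL_H_18 and CL_H_19 had the 4 highest scaling factors by the trimmed mean of M values (TMM), and the line results are also given without them. The mean log2 TMM factor was 0.08 in Fert+ and -0.11 in Fert-, so TMM-scaled values lowered Fert+ relative to Fert- by 0.19 on the log2 scale compared with CPM from library totals.

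Abundance among the members was uneven. Their mean in corpus luteum ran from 32.2 to 13965 CPM with a median of 120 CPM, 40 members reached 100 CPM and 14 reached 1000 CPM. All 14 of the latter were among the 100 most abundant IDs of the tissue, and 2 members were among the 10 most abundant. The single most abundant member supplied 21.4% of the summed mean CPM of the 76, the top 4 supplied 50.3% and the top 10 supplied 76.1%, which left 23.9% for the other 66.

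**Figure D1:**
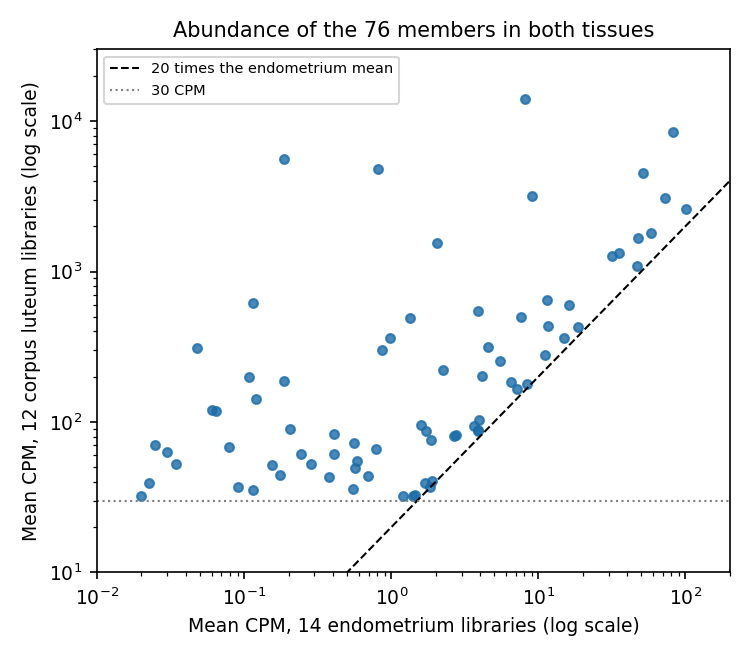
Mean CPM of each of the 76 members over 12 corpus luteum libraries (vertical axis) against the mean over 14 endometrium libraries (horizontal axis), both on log scales. The dashed and dotted lines are the limits of the rule, and the members spread from those limits up to 13965 CPM in corpus luteum.

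The low side of the contrast differed widely between members. The ratio of the tissue means had a median of 84.6 and reached 28761, with 34 members at 100 or more and 14 at 1000 or more. The endometrium mean was under 1 CPM for 33 members and at least 10 CPM for 15. No member was without a count in endometrium (0 of 76), and 52 had a count in every endometrium library. For 68 members the lowest corpus luteum library lay above the highest endometrium library. That count follows in part from the rule, which chose members by their tissue means, and no share of all IDs is given beside it. The other 8 members overlapped, and 6 of these had over 50% of their summed luteal CPM in 1 library. At the limits of the rule, the member with the lowest ratio stood at 20.01 (36.9 CPM in corpus luteum) and the ID just outside at 19.3, while the least abundant member averaged 32.2 CPM and the ID just outside 29.5 CPM.

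The most abundant member was ENSBTAG00000033345. Its level in Fert+ corpus luteum was 12706 CPM at the lowest, 16067 at the median and 20490 at the highest. The Fert- values were 10881 in CL_L_17, 9520 in CL_L_20, 19048 in CL_L_25, 16492 in CL_L_27 and 1127 in CL_L_28. The lines overlapped, CL_L_28 lay far below all other libraries, and endometrium ranged from 5.07 to 14.9 CPM.

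ENSBTAG00000006769 had the largest ratio of all members. Fert+ corpus luteum ranged from 3912 to 10085 CPM with a median of 7313, against 2729, 4128, 4934, 5623 and 461 CPM in CL_L_17, CL_L_20, CL_L_25, CL_L_27 and CL_L_28. CL_L_28 was again the lowest library by a wide margin, but still lay above endometrium, whose highest library held 0.574 CPM. Only 35 counts of this ID were found in all endometrium libraries together, so its ratio rests on few counts.

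ENSBTAG00000014269, the second most abundant member, varied far less. Fert+ libraries ranged from 8218 to 10496 CPM with a median of 9444, and the 5 Fert- libraries held 5502 (CL_L_17), 8265 (CL_L_20), 8264 (CL_L_25), 8083 (CL_L_27) and 5447 CPM (CL_L_28). The lines overlapped, and CL_L_17 and CL_L_28 were the lowest libraries. Its endometrium level of 81.8 ± 17.1 CPM (SD, n = 14) shows that a member could also be well detected in the other tissue.

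**Figure D2:**
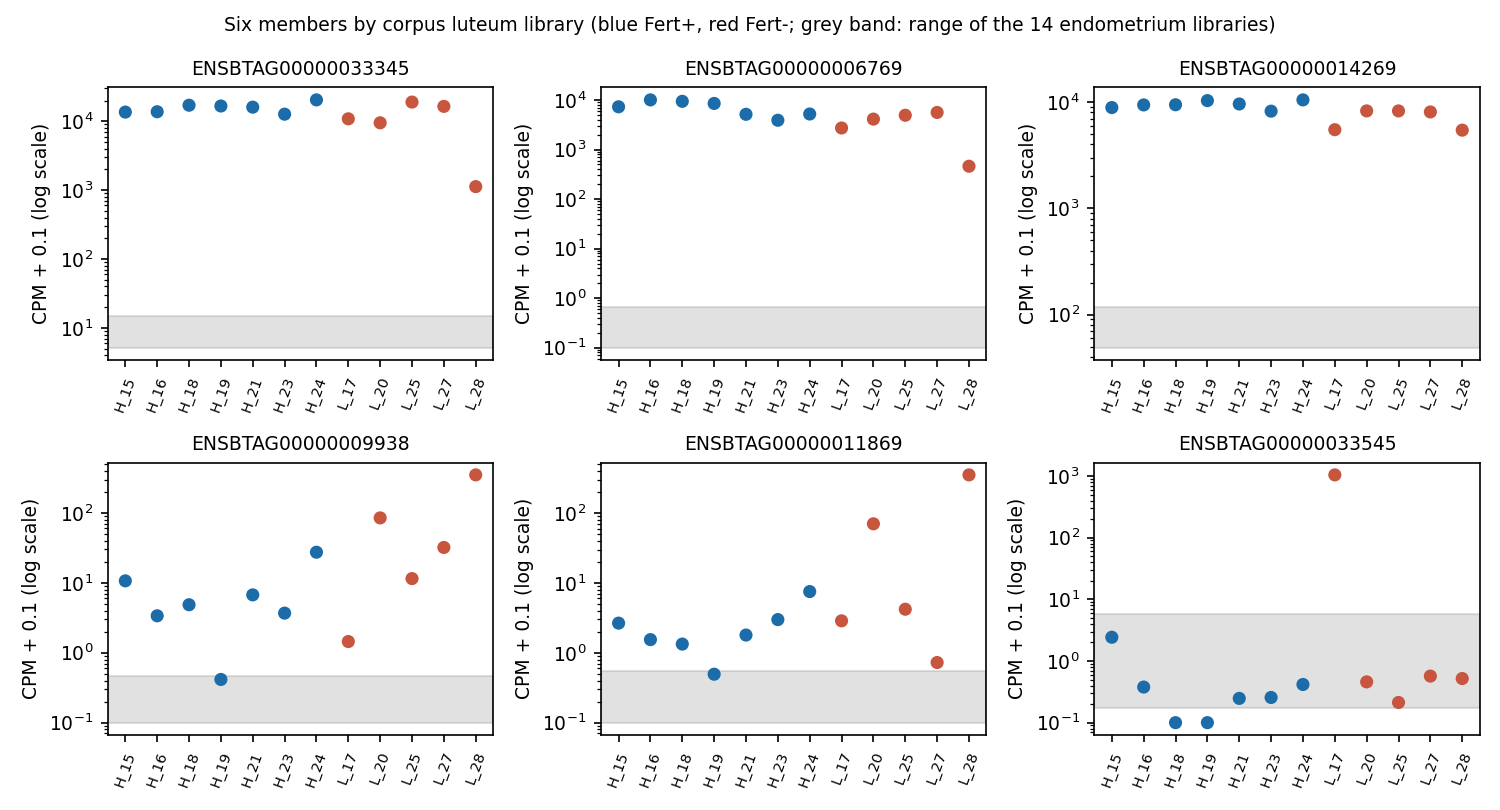
CPM plus 0.1 on a log scale in each corpus luteum library for 6 members (blue Fert+, red Fert-), with the range of the 14 endometrium libraries as a grey band. ENSBTAG00000033345 and ENSBTAG00000006769 are lowest in L_28, ENSBTAG00000009938 and ENSBTAG00000011869 are highest in L_28 and L_20, and ENSBTAG00000033545 is high in L_17 alone.

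As a group, the members took 6.53% ± 1.25 of corpus luteum counts (SD, n = 12) and 0.0726% ± 0.0101 of endometrium counts (SD, n = 14). Within corpus luteum the share was 7.18% ± 0.566 in Fert+ (n = 7, 6.15% to 7.83%). In Fert- it was 5.63% ± 1.45 (n = 5), with 3.67% in CL_L_28, 4.82% in CL_L_17, 5.60% in CL_L_20, 7.01% in CL_L_25 and 7.04% in CL_L_27. The 3 lowest shares of all 12 libraries were thus Fert-, while the other 2 Fert- libraries lay inside the Fert+ range.

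The difference of the means, 1.55 percentage points, did not have the same direction within batches. It was 2.87 points in batch 1 and 2.65 in batch 2, but -0.403 in batch 3, where Fert- was higher. It was 1.06 points without CL_L_28, 0.624 without CL_L_28 and CL_L_17, 1.42 without CL_H_15, CL_H_16, CL_H_18 and CL_H_19, and 0.728 with TMM-scaled values. Since the members were chosen with these libraries, no test was attached to it.

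The 10 most abundant members carried most of that difference. Without them the share was 1.64% ± 0.0665 in Fert+ (1.57% to 1.76%) and 1.45% ± 0.0928 in Fert- (1.33% to 1.55%), and the lines did not overlap. This separation, which was noticed after the values were seen, held for shares of the library total only: with TMM scaling the means were 1.75% in Fert+ and 1.78% in Fert-, with median-ratio (RLE) scaling 1.77% and 1.85%, and the lines overlapped in both.

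**Figure D3:**
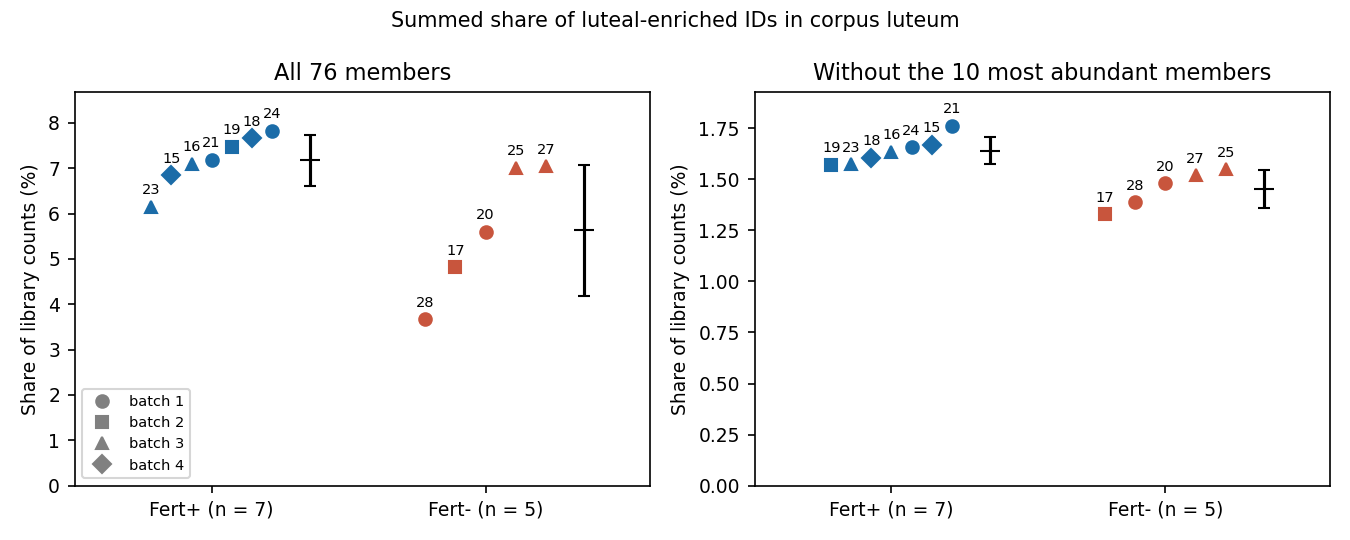
Share of all counts taken by the members in each corpus luteum library (percent of the library total, vertical axis), for all 76 (left) and without the 10 most abundant (right). Symbols give the batch, numbers the replicate, bars the mean ± SD, and points within a line are ordered by value: CL_L_28 and CL_L_17 are lowest on the left at 3.67% and 4.82%, and the lines on the right do not overlap under this scaling.

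In CL_L_28 many members were low, but not all. On the log2(CPM + 0.5) scale, the difference of a member from its own median over the other 11 corpus luteum libraries had a median of -0.69, compared with -0.11 for the 5007 IDs of at least 30 CPM. Over 2-fold lower were 34 members (44.7%, against 4.67% of those 5007 IDs), and 7 of them were over 8-fold lower. Another 10 members were over 2-fold higher (13.2% against 3.46%), 4 of them over 8-fold, and 32 lay within 2-fold. CL_L_28 was the lowest library for 33 members (43.4% against 22.5%) and the highest for 13 (17.1% against 12.7%). The shares on the high side follow in part from the selection, since some of these members met the rule through CL_L_28 itself. The means of ENSBTAG00000011869, ENSBTAG00000009938 and ENSBTAG00000004547 over the other 11 libraries were 8.65, 16.9 and 24.4 CPM, under the limit of 30 CPM. Below the median of the other libraries, by any amount, lay 47 members (61.8%), a share near that of the 5007 IDs (62.6%).

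The low values in CL_L_28 reached the most abundant members. Of the 14 members of at least 1000 CPM, 9 were over 2-fold lower there and 1 was over 2-fold higher, with a median log2 difference of -1.42. The median was -0.71 for the 26 members of 100 to under 1000 CPM (11 lower, 3 higher) and -0.47 for the 36 members under 100 CPM (14 lower, 6 higher). No split of the 5007 IDs by abundance is given beside these counts, so whether the gradient was particular to the members was not tested. The 34 low members summed to 8377 CPM in CL_L_28, against 27358 to 51489 CPM (median 45667) in the other 11 libraries. The 10 high members summed to 8551 CPM in CL_L_28, against 1547 to 2805 CPM (median 2081) elsewhere. Neither sum overlapped with the other libraries, and both sets were picked on this library, so the sums describe their size only.

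The pair furthest below was ENSBTAG00000006419 and ENSBTAG00000006424. ENSBTAG00000006419 held 2.35 CPM in CL_L_28 (28 counts), 53.5 in CL_L_17, 13.4 in CL_L_20, 37.9 in CL_L_25, 84.1 in CL_L_27 and 19 to 56.5 CPM (median 51.5) in Fert+, which placed it 21.9-fold below the median of the other 11. ENSBTAG00000006424 held 2.68 CPM in CL_L_28 (32 counts), 83.2 in CL_L_17, 23.1 in CL_L_20, 22.5 in CL_L_25, 47.1 in CL_L_27 and 22.98 to 81.1 CPM (median 46.5) in Fert+, or 17.3-fold below. For both, the other 4 Fert- libraries spread over or beyond the Fert+ range, so the low value was that of 1 library.

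The member furthest above was ENSBTAG00000011869. It held 352 CPM in CL_L_28 and 70.05 CPM in CL_L_20, but 2.77 in CL_L_17, 4.10 in CL_L_25, 0.625 in CL_L_27 and 0.394 to 7.42 CPM (median 1.69) in Fert+. ENSBTAG00000005260, named after its values were seen, held 1678.5 CPM in CL_L_28, 119 in CL_L_20, 99.3 in CL_L_25, 29.9 in CL_L_27, 19.8 in CL_L_17 and 13.2 to 62.3 CPM (median 29.8) in Fert+. Along with ENSBTAG00000009938 and ENSBTAG00000004547 these were the 4 members over 2-fold higher in both CL_L_28 and CL_L_20, and for all 4 these were the highest libraries. Both libraries were Fert-, batch 1 and parity 4, so line, parity and the pair itself cannot be told apart within that batch. Of the 5007 IDs, 18 were over 2-fold higher in both. All 4 members had met the rule through CL_L_28, so their number follows in part from the selection.

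Library CL_L_17 departed from the others as well. There 23 members were over 2-fold below the median of the other 11 libraries (30.3% against 6.35% of the 5007 IDs) and 8 over 2-fold above (10.5% against 2.12%), with a median difference of -0.53. Among those above were ENSBTAG00000033545, ENSBTAG00000039446 and ENSBTAG00000046375, which met the rule through CL_L_17. Their means over the other 11 libraries were 0.416, 0.611 and 9.89 CPM. The share of members above therefore follows in part from the selection. Over 2-fold lower in both CL_L_17 and CL_L_28 were 12 members, that is 52.2% of the former set and 35.3% of the latter. For comparison, 44.7% of all 76 members were that low in CL_L_28 and 30.3% in CL_L_17. No such overlap of the 5007 IDs is given beside it, so nothing is read from the 12. In each of the remaining 10 libraries 1 to 7 members were over 2-fold lower (1.32% to 9.21%, against 0.340% to 0.799% of the 5007 IDs), and their medians lay between -0.12 and 0.19. IDs enriched in endometrium by the same rule with the tissues exchanged (178 IDs) summed to 1734 CPM in CL_L_17, the highest of the corpus luteum libraries, and to 707 CPM in CL_L_28, inside the range of the others (329 to 1734 CPM). The part of endometrial RNA in these values was not tested.

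**Figure D4:**
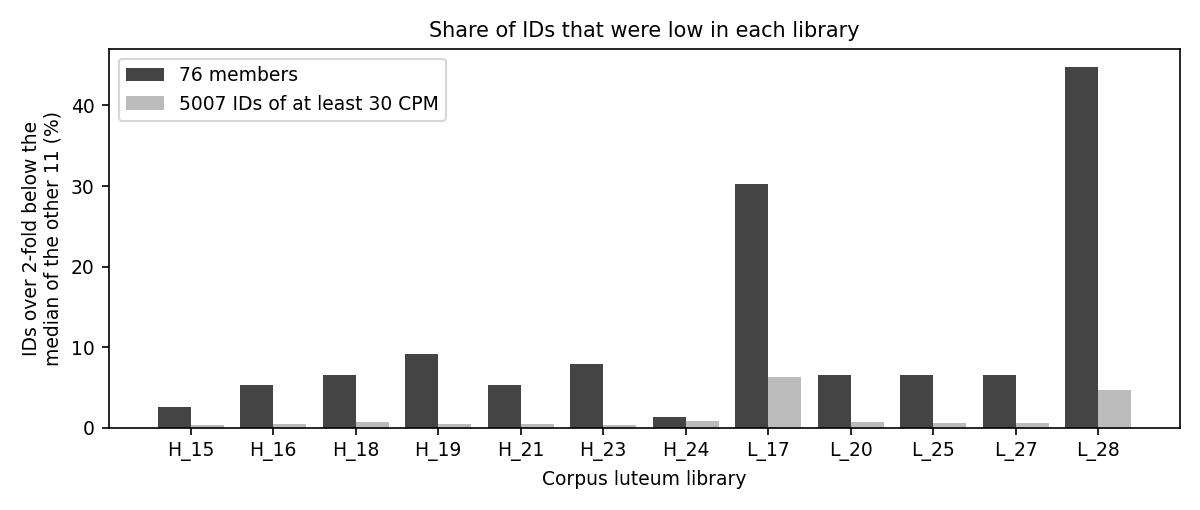
Percent of IDs over 2-fold below their median in the other 11 corpus luteum libraries (vertical axis), for the 76 members (dark) and the 5007 IDs of at least 30 CPM (light), by library. L_28 and L_17 reach 44.7% and 30.3% of members, and the other libraries 1.32% to 9.21%.

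Spread between corpus luteum libraries was wider for the members than for all IDs that passed the same limit on abundance. The SD of log2(CPM + 0.5) had a median of 0.66 over the members and 0.26 over the 5007 IDs of at least 30 CPM, and it exceeded 1 for 18 members (23.7% against 1.98%). Without CL_L_17 and CL_L_28 the medians were 0.47 and 0.21. By abundance, the median SD was 0.57 for members of at least 1000 CPM, 0.61 for those of 100 to under 1000 CPM and 0.81 for those below. The steadiest member, ENSBTAG00000005425, ranged only from 41.7 to 75.2 CPM with a median of 63.7 (SD 0.23 on the log2 scale).

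At the other end, 6 members had over 50% of their summed luteal CPM in 1 library (7.89% against 0.220% of the 5007 IDs), 3 of them in CL_L_17 and 3 in CL_L_28. For 5 of the 6 the mean over the other 11 libraries was under 30 CPM. The remaining ID, ENSBTAG00000005260, averaged 47.8 CPM over the other 11 against 6.46 CPM in endometrium, under the limit of 20 times. All 6 thus met the rule through a single library, and their wide spread and the share of 7.89% follow in part from that. The widest spread was that of ENSBTAG00000033545, with 1041 CPM in CL_L_17 (13921 counts) and at most 2.32 CPM in any other corpus luteum library, inside or below its endometrium range of 0.0738 to 5.61 CPM. Also high in CL_L_17, and named after their values were seen, were ENSBTAG00000039446, with 622 CPM there and at most 3.26 CPM elsewhere in corpus luteum, and ENSBTAG00000046375, with 1012 CPM there and at most 51.9 CPM elsewhere. A label of luteal enrichment does not describe these 3 IDs in the other 11 libraries.

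The members did not vary as a single block. The median Spearman correlation between pairs of members over the 12 libraries was 0.098, beside 0.077 for pairs of the 5007 IDs. All pairs share the same 12 libraries and their totals, so this is a description. The first principal component of the members held 38.9% of their variance, beside 49.2% for the 5007 IDs. CL_L_28 alone supplied 71.6% of the members' squared scores on it. The second held 36.9%, beside 16.9% for the 5007 IDs, and CL_L_17 supplied 85.6% of the members' squared scores on it. Values were not scaled by member, and members that met the rule through 1 of these libraries were included. ENSBTAG00000033545, ENSBTAG00000039446 and ENSBTAG00000046375 lay 10.4, 9.61 and 8.79 log2 units above their median of the other 11 libraries in CL_L_17. The weight of CL_L_17 and CL_L_28 in the components therefore follows in part from the selection. With both libraries left out, the median correlation was 0.046, against 0.079 for the 5007 IDs. Without CL_L_28, the 34 members that were low in it had a median correlation among themselves of 0.25 over the other 11 libraries, and the other 42 members 0.082. The IDs of at least 30 CPM chosen the same way had 0.24.

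**Figure D5:**
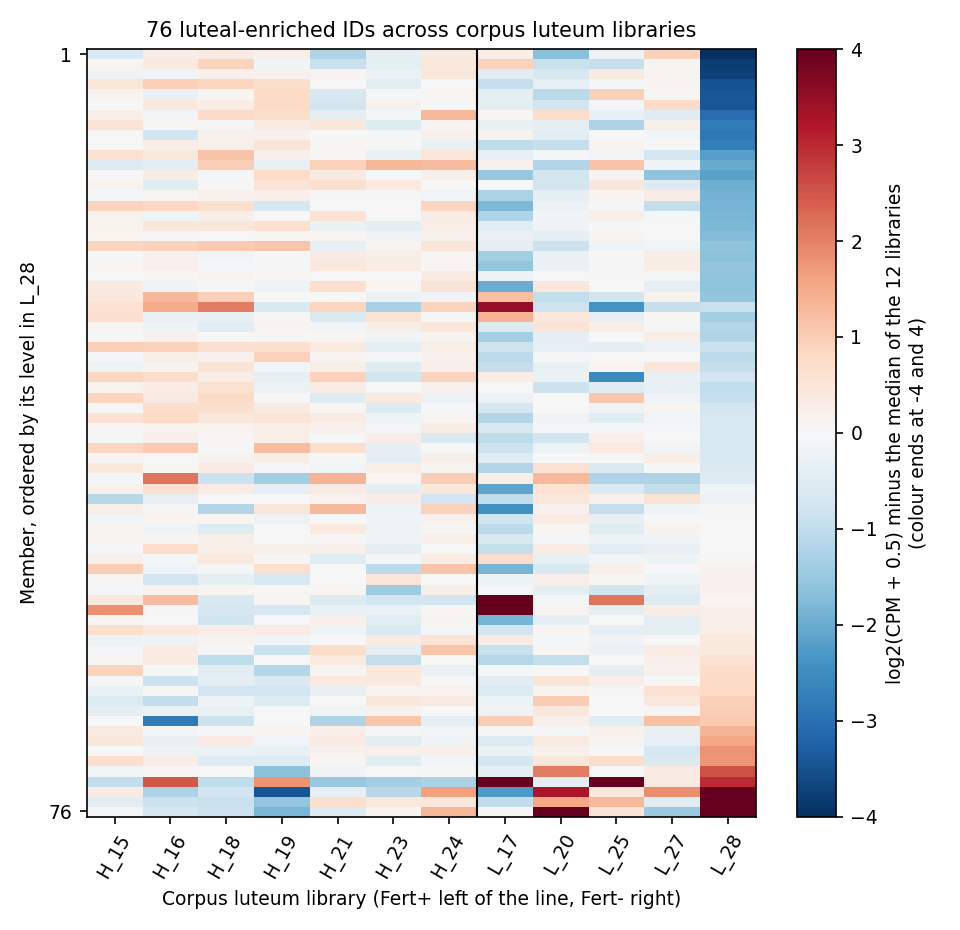
log2(CPM + 0.5) of each of the 76 members (rows, ordered by level in L_28) minus its median over the 12 corpus luteum libraries (columns), coloured from -4 (blue) to 4 (red), with values beyond those ends drawn at the end colours. The largest departures are in L_28, where the top rows are blue and the bottom rows red, and in L_17.

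The line comparison asked which members differed between Fert+ and Fert- corpus luteum. With edgeR's quasi-likelihood test and batch in the model, 0 of the 74 members tested passed an adjusted p of 0.05. The same held over all 13462 IDs tested, of which 0.0% were called and the lowest adjusted p was 0.212. At an unadjusted p under 0.05 there were 18 members (24.3%, against 21.1% of all tested IDs), 9 higher in Fert+ (12.2% against 12.1%) and 9 lower (12.2% against 9.01%). The 2 members not tested, ENSBTAG00000033545 and ENSBTAG00000039446, were removed by the filter on low counts.

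The rule averaged over both lines, so a member could also enter it through 1 line. With the mean of each line's corpus luteum libraries taken alone, 57 members met the rule in both lines, 10 in Fert+ alone and 9 in Fert- alone. In the last 2 sets the direction of the difference of means follows from that selection: all 10 tested members of the Fert+ set had a positive fold change and all 7 tested members of the Fert- set a negative one. Of the members at an unadjusted p under 0.05, 6 of the 9 lower ones belonged to the Fert- set and 2 of the 9 higher ones to the Fert+ set. Counts of members are therefore given below as descriptions, and nothing is read from their distance to the background.

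The fitted log2 fold change was above 0 for 51 members (68.9% against 52.9%), with a median of 0.28 beside 0.03 for all tested IDs. Among the 57 members that met the rule in both lines, 41 were above 0 (71.9%), with a median of 0.29. With 1 library left out, the median of all members was lowest without CL_L_28, at 0.12 (44 above 0, 59.5% against 53.3%). It was highest without CL_H_23, at 0.37 (53 members, 71.6% against 52.4%), and 0.15 without CL_H_24 (47 members, 63.5% against 53.0%). Without CL_H_15, CL_H_16, CL_H_18 and CL_H_19 it was 0.22 (49 members, 66.2% against 48.8%). With parity beside batch, which takes further libraries out of the line contrast as given below, 40 members were above 0 (54.1% against 51.2%). The median was then 0.11. Without CL_L_17 and CL_L_28, 40 members were above 0 (54.1% against 53.8%) and the median was 0.02. No member had lines that did not overlap (0 of 74, against 2.57% of IDs with Fert+ above and 0.267% with Fert- above). An absolute log2 fold change over 1 was found for 8 members (10.8% against 4.55%), of which 5 were lower in Fert+ and had met the rule through Fert- alone.

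Among members with a positive fold change, ENSBTAG00000011585 and ENSBTAG00000009017 had the smallest p. The first met the rule through Fert+ alone (mean 42.6 CPM in Fert+ and 18.1 in Fert-), so its direction follows from the selection, and the second met it in both lines. ENSBTAG00000011585 ranged from 20.9 to 57.6 CPM in Fert+ (median 48.5) and held 20.2, 14.4, 23.3, 24.2 and 8.39 CPM in CL_L_17, CL_L_20, CL_L_25, CL_L_27 and CL_L_28. Fert+ was higher in most libraries, with an overlap at the low end through CL_H_21, and the log2 fold change was 0.97 (SE 0.23, edgeR adjusted p = 0.212, and 0.0212 to 0.887 over 25 alternatives). ENSBTAG00000009017 ranged from 79.7 to 199 CPM in Fert+ (median 159) and held 57.9, 82.7, 77.7, 86.7 and 55.1 CPM in the same 5 Fert- libraries. Only CL_H_23 among the Fert+ libraries lay within the Fert- range, and the log2 fold change was 0.80 (SE 0.21, edgeR adjusted p = 0.212, and 0.00208 to 0.887 over 25 alternatives).

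On the negative side stood ENSBTAG00000009938 and ENSBTAG00000004547, both already described as high in CL_L_28 and CL_L_20. Both met the rule through Fert- alone: the mean of ENSBTAG00000009938 was 8.07 CPM in Fert+ and 95.9 in Fert-, and that of ENSBTAG00000004547 was 17.5 and 53.05 CPM. Their negative direction follows from that selection, so the values that follow are a description and no evidence of a line difference. ENSBTAG00000009938 ranged from 0.315 to 27.3 CPM in Fert+ (median 4.76) and held 1.35 CPM in CL_L_17, 84.9 in CL_L_20, 11.4 in CL_L_25, 32.0 in CL_L_27 and 350.02 in CL_L_28. Its log2 fold change was -3.28 (SE 0.60, edgeR adjusted p = 0.212, and 2.65e-06 to 0.887 over 25 alternatives). ENSBTAG00000004547 ranged from 6.06 to 21.05 CPM in Fert+ (median 18.8), beside 15.3, 84.7, 20.4, 25.2 and 119.6 CPM in the same order of Fert- libraries. Here the log2 fold change was -1.48 (SE 0.35, edgeR adjusted p = 0.212, and 0.00586 to 0.887 over 25 alternatives). In both members 3 of the 5 Fert- libraries (CL_L_20, CL_L_27 and CL_L_28) lay above all Fert+ libraries, and the other 2 lay inside the Fert+ range.

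Calls among the members depended on how batch and the spread were handled. DESeq2 with batch called 5 members (6.76%, against 1.45% of all IDs), 2 higher in Fert+ (2.70% against 0.520%) and 3 lower (4.05% against 0.929%). All 3 lower ones had met the rule through Fert- alone, and 1 of the 2 higher ones through Fert+ alone. limma-voom called 0 members and 0.0% of IDs, with 18 members at an unadjusted p under 0.05 (24.3% against 13.2%). Leaving batch out of edgeR gave 8 members (10.8%, against 8.85% of all IDs), 3 higher in Fert+ (4.05% against 4.64%) and 5 lower (6.76% against 4.21%), with a lowest adjusted p of 0.0475. All 5 lower ones had met the rule through Fert- alone, and 1 of the 3 higher ones through Fert+ alone. The 8 became 0 when any 1 of CL_H_15, CL_H_16, CL_L_17, CL_H_18, CL_H_19, CL_L_25, CL_L_27 or CL_L_28 was left out, and 2 without CL_L_20. With parity beside batch, 9 of the 74 members tested and 4006 of the 13462 IDs tested were called, a lower share of members than of all IDs. Parity 2 occurred only in the Fert+ libraries CL_H_21 and CL_H_24, so that fit takes both out of the line contrast. Batch 1 then holds Fert- libraries only, so CL_L_20 and CL_L_28 drop out as well. CL_H_23, the only library of parity 4 in batch 3, sets the parity 4 term, and batch 4 has no Fert- library. The contrast thus rests on CL_H_19 against CL_L_17 and on CL_H_16 against CL_L_25 and CL_L_27.

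In endometrium the members were at their low level by selection, and 45 passed the filter on low counts. With edgeR and batch, 0 of them passed an adjusted p of 0.05 (0.0% of 14243 IDs; lowest adjusted p of a member 0.981). At an unadjusted p under 0.05 there were 5 (11.1%, against 3.00% of all tested IDs), all lower in Fert+ (11.1% against 1.36%). DESeq2 and limma-voom also called 0 members, against 0.0562% and 0.0% of all IDs, and both gave 5 members at an unadjusted p under 0.05 (against 3.97% and 4.51%). The library that was highest for the most members was the Fert- replicate 14 of endometrium, for 16 of 76. Leaving it out gave 5 members again, with no share of all tested IDs recorded for that fit.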

How the data were processed

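The deposited files, 1 per library, give raw counts for 24616 gene IDs. Per the submitters' processing notes, the tools were featureCounts, STAR 2.3.0, Trim Galore, FastQC 0.10.0 and CASAVA 1.9, with the genome build UMD3.1. Per the labels' protocols, TRIzol was used for extraction and a TruSeq RNA kit for the libraries. Strand setting, annotation release and the treatment of reads with several matches were not given in the sources used here. Overlapping or near-identical genes are therefore uncertain. IDs were compared with a RefSeq gene table by every identifier it holds, with 0 matches, so lists of known genes and marker checks could not be run.

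Counts were used as deposited. Descriptive values are CPM from library totals, or log2(CPM + 0.5) for differences and spread. The line test in each tissue was fitted on all IDs that passed filterByExpr, with TMM factors, batch and line, in edgeR 4.0.16 (R 4.3.3), with a robust quasi-likelihood F test, two-sided, and Benjamini-Hochberg adjustment over all IDs tested (threshold 0.05). Positive log2 fold changes mean higher in Fert+, with a standard error (SE) equal to the fold change over the square root of F. The other settings were no or a stricter low-count filter, upper-quartile or RLE scaling, DESeq2 1.42.0, voom with quality weights (limma 3.58.1), batch left out, parity added to batch, one fit of all libraries, each corpus luteum library left out, without batch 4, and an adjusted p under 0.10. Fits without CL_L_17 and CL_L_28, without CL_H_15, CL_H_16, CL_H_18 and CL_H_19, and endometrium fits without Fert- replicate 9 or 14 were chosen after seeing the data, as was the count of members that meet the rule with 1 line's mean.

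The members and lists were chosen with earlier results of these data known. Members were named by a rule: the 3 most abundant, the largest ratio, the 2 with the smallest line p in each direction, the largest and smallest SD, and the 2 furthest below and the 1 furthest above in CL_L_28. Depth, 9627378 to 18008417 counts per library, limits values of a few CPM, and counts from PCR-amplified reads cover counting error only.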

Additional observations from a re-analysis of the deposited data

Results flagged for a closer look

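Within each line, the members' share of counts in both tissues and the corpus luteum values of the 12 named members were checked for a library that lay apart (a gap to its nearest neighbour that is large for the whole range of the group). Of 28 groups of values, 7 were picked out. Chance alone picks about 1 in 20 groups of members not chosen for their values, but all 4 members below were named for extreme values (the widest spread, the furthest above in CL_L_28, or the smallest line p), so that rate does not apply and nothing is read from the number. Library CL_L_28 lay apart among Fert- libraries with 350.02 CPM for ENSBTAG00000009938 and with 352 CPM for ENSBTAG00000011869. CL_L_17 lay apart among them with 1041 CPM for ENSBTAG00000033545. Among Fert+ libraries CL_H_24 was highest and apart for the same 2 members as CL_L_28, with 27.3 CPM for ENSBTAG00000009938 and 7.42 CPM for ENSBTAG00000011869. CL_H_15 was highest and apart with 2.32 CPM for ENSBTAG00000033545. CL_H_19 was lowest and apart with 6.06 CPM for ENSBTAG00000004547.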

How the results depend on the processing

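No call of a member in corpus luteum was made with batch in edgeR, and 0 members were also called under RLE and upper-quartile scaling, both other filters, voom, a threshold of 0.10, without batch 4 and without either set of doubted libraries. Calls appeared with DESeq2 (5 of 74 members, 195 of 13462 IDs) and without batch (8 of 74 members, 1191 of 13462 IDs). They also appeared with batch and parity (9 of 74 members, 4006 of 13462 IDs) and in one fit of all 26 libraries (2 of 76 members, 259 of 14968 IDs). Without a low-count filter 4 IDs were called, none of them a member. Leaving out 1 library gave 0 to 6 members and 0 to 908 IDs with batch, the upper values without Fert+ replicate 23 (CL_H_23), and 1 ID each without CL_L_20 and CL_L_27. Members at an unadjusted p under 0.05 then numbered 10 (without CL_H_21) to 23, beside 18 with all libraries. They numbered 10 without CL_H_15, CL_H_16, CL_H_18 and CL_H_19 and 11 without CL_L_17 and CL_L_28. For fits with libraries left out, the share of all tested IDs at that p was not recorded, so nothing is read from these counts. Without batch, DESeq2 called 11 members (14.9%) and 2947 IDs (21.9%), and voom called 14 members (18.9%) and 5028 IDs (37.3%). Without batch, leaving out 1 library gave 0 to 12 members, 0 to 3241 IDs and 12 to 22 members at an unadjusted p under 0.05. In that fit 0 members and 0 IDs were called without CL_L_17 and CL_L_28, and 0 and 0, with 7 members at an unadjusted p under 0.05, without CL_H_15, CL_H_16, CL_H_18 and CL_H_19. In endometrium DESeq2 called 8 IDs, none of them a member. The cause of these differences was not tested. No paired analysis was run, because the labels give no pairing between libraries. They do not say which endometrium and corpus luteum libraries came from the same cow.

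The rule gave 128 members with a ratio of at least 10, 46 with at least 50, 40 with at least 100 CPM, 91 with TMM scaling, 93 with RLE scaling and 72 with medians (65 shared). With 1 corpus luteum library left out it gave 74 to 77 IDs, of which 70 were members without CL_L_28 and 73 without CL_L_17. The median SD was 0.466 without CL_L_17 and CL_L_28 and 0.521 without CL_L_28. The median correlation was 0.0457 without both, 0.0629 with TMM scaling and 0.1 without CL_L_28. Without CL_L_28 the first component held 54.0% of the members' variance, beside 54.3% for the 5007 IDs. The line difference in share ran from 1.06 to 1.901 points with 1 library left out. The 4 members named for the line test and the 3 named for CL_L_28 kept their direction under every alternative run for them. They were named for those same values and the alternatives shared most libraries, so a constant direction follows in part from the naming. ENSBTAG00000011585, ENSBTAG00000009938 and ENSBTAG00000004547 had also met the rule through 1 line. Values of a few CPM rest on few counts, such as 28 counts of ENSBTAG00000006419 in CL_L_28.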
